A study of Homo sapiens with 12 samples.

Results

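The miRNAs described here are those that mark blood cells, striated muscle, mesenchyme and smooth muscle, liver, neurons and endothelium. They were looked for in KYSE150, a human cell line from a squamous carcinoma of the oesophagus, which is an epithelial tumour. Probes were chosen by name, taking every arm of 21 miRNAs. The array held 38 such probes among 2565 human miRNA probes, and 1 of the 38 covers miR-199a-3p and miR-199b-3p together. The series had 6 arrays of cells given 100 nM galectin-9 for 6 h and 6 arrays of control cells kept without it, all of this 1 line, in Ham's F12 medium with 2% fetal bovine serum. Galectin-9 is a lectin that binds beta-galactosides on the cell surface. Each sample's total RNA carried the dye Cy5 and was read on a 3D-Gene miRNA array of its own. Nothing in the labels tells whether replicates are separate cultures, so the p-values cover the spread among these 12 samples alone, which may be technical.

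A miRNA is cut from a hairpin in a longer transcript, and either strand of the hairpin (the 5p or the 3p arm) may be loaded into Argonaute, where the seed, bases 2 to 8, selects target messages. Many miRNAs are made in nearly all cells, but the ones described here are known for strong expression in one lineage: miR-451a, miR-144 and miR-486 in red blood cells, miR-142, miR-150 and miR-223 in white blood cells, and miR-1, miR-133, miR-206, miR-208 and miR-499a in striated muscle. miR-143, miR-145, miR-199 and miR-214 are abundant in smooth muscle and other mesenchymal cells, miR-122 in hepatocytes, miR-124 in neurons and miR-126 in endothelial cells.

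The sequences below are those of members on which the results turn, from RefSeq for build GRCh38.p14. A mature sequence was taken by name for 29 of the 38 probes, and not every chromosome was searched. Each is written from 5′ to 3′ with the seed in capitals. The first set holds members seen on all 12 arrays, without miR-486-5p, for which no sequence was taken. Both arms of miR-126 lie within the gene EGFL7, on its strand, at chr9:136670616-136670636 (5p) and chr9:136670653-136670674 (3p). The hairpin of miR-214 lies within the antisense transcript DNM3OS, with the 3p arm at chr1:172138816-172138837 on the minus strand.
miR-126-3p: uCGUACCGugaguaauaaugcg
miR-126-5p: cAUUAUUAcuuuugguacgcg
miR-214-3p: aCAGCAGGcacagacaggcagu

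The second set holds muscle miRNAs that share a seed. miR-206 differs from miR-1-3p at 4 of 22 bases, written with the base of miR-1-3p first and counted from 1 at the 5′ end (A11G, A17G, A21G and U22G). miR-133b differs from miR-133a-3p only at the last base (G22A). miR-206 and miR-133b lie close together at chr6:52144401-52144422 and chr6:52148988-52149009, while miR-1-3p and miR-133a-3p each come from a pair of loci on chromosomes 18 and 20.
miR-1-3p: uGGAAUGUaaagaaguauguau
miR-206: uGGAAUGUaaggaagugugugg
miR-133a-3p: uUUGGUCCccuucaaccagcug
miR-133b: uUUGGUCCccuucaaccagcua

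The third set holds members with the smallest unadjusted p in the comparison of treated with control cells for which a sequence was given. The arms of miR-143 lie within the smooth muscle transcript CARMN at chr5:149428944-149428965 (5p) and chr5:149428978-149428998 (3p), and miR-223-3p lies within MIR223HG at chrX:66018937-66018958.
miR-143-3p: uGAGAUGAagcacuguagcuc
miR-143-5p: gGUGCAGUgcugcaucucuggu
miR-223-3p: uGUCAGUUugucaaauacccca

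The array files list a background-subtracted intensity only for spots above a limit, the mean plus 2 SD of the 320 blank spots after trimming, and a probe above it is called detected here. Intensities are in arbitrary units. The limit lay 1.496 to 2.45 units above background on galectin-9 arrays and 1.68 to 3.19 units on control arrays. Galectin-9 arrays had 1551 to 2045 detected human miRNA probes and control arrays 934 to 1895, with the lowest number on control 6 (difference in mean 251.0, exact permutation p = 0.180, two-sided, adjusted p = 0.360 over 3 array measures). Without control 6 the difference was 125.97. File names place 4 arrays on each of 3 slides, with 2 of each group on a slide and galectin-9 arrays always at even positions, so position parity and treatment cannot be told apart.

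Spots not named for a human miRNA were used to read this limit. What the spots named No Probe hold is not stated in the files. Of the blank spots, from which the limit was made, 5.62% to 9.38% lay over it on each array. Of the 85 spots that the files name No Probe, 38.8% to 75.3% lay over it on galectin-9 arrays and 36.5% to 87.1% on control arrays. The tissue-restricted probes were over the limit at 44.7% to 81.6% on galectin-9 arrays and at 13.2% to 71.1% on control arrays, with a median of 57.9% in each group. The share of restricted probes was below that of the No Probe spots on 8 of 12 arrays, which are all arrays of slides 2 and 3, and above it on the 4 arrays of slide 1. The part of such signal in the detection of the dim members was not tested. A second, stricter limit was therefore set on each array at the 95th percentile of its No Probe spots, after these values were seen.

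**Figure D1:**
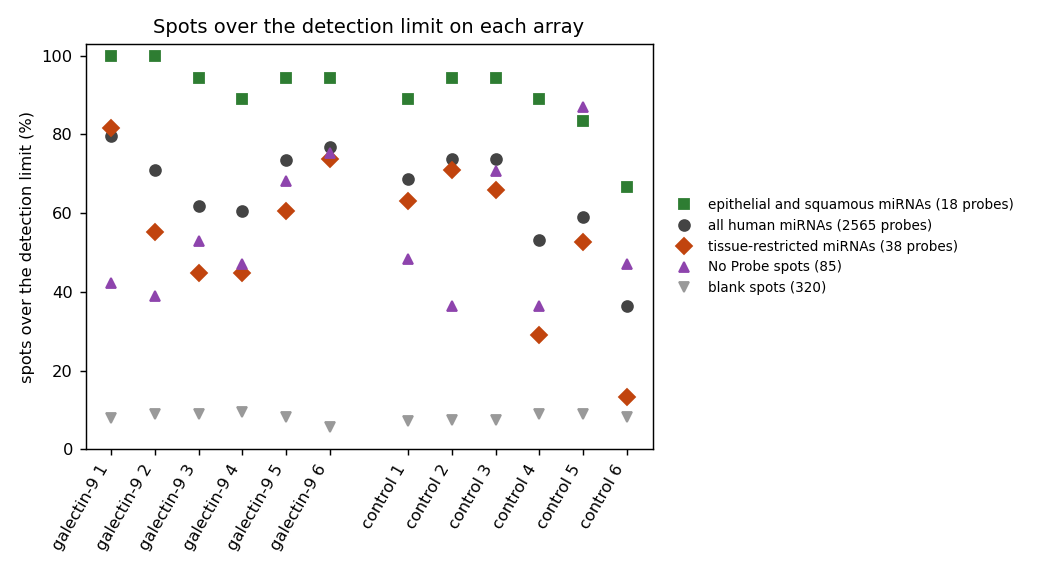
The percentage of spots over the detection limit of the files (y axis) is plotted for each galectin-9 and control array (x axis), with 1 point per kind of spot. Tissue-restricted miRNA probes lie below the No Probe spots on 8 of 12 arrays, and epithelial and squamous miRNA probes lie at 66.7% or higher on all 12 arrays.

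The tissue-restricted miRNAs were mostly at the edge of detection in these cells. Of the 38 probes, 4 were detected on all 12 arrays, 21 on 6 to 11 arrays, 10 on 1 to 5 arrays and 3 on none. The 25 probes detected on at least 6 arrays are 65.8% of the set, near the 67.6% of all human miRNA probes, but only 10.5% were detected on all 12 arrays, against 34.7% of all human miRNA probes. Without control 6, the array with the fewest detected probes, 10 of the 38 were detected on all 11 remaining arrays. Above the 95th percentile of the No Probe spots, 4 of 38 probes (10.5%) were seen on at least 6 arrays, against 31.1% of all human miRNA probes. Of the 38, 26 were seen on none, against 1266 of the 2565 human miRNA probes. In RNA of a whole culture, fewer cells with a miRNA and less of it per cell cannot be told apart.

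Most probes for epithelial miRNAs, the tissue type of the line, were detected. Of 18 probes for squamous and other epithelial miRNAs, 17 were detected on at least 6 arrays and 12 on all 12 arrays. On all 12 arrays 10 of them were above the 95th percentile of the No Probe spots, among them miR-205-5p, a miRNA of stratified epithelium, and miR-200c-3p and miR-141-3p, which hold down the mesenchymal factors ZEB1 and ZEB2. Of the 38 restricted probes 1 met that mark, miR-126-3p. Some epithelial probes were dim too: miR-944 and miR-203b-5p were above that percentile on 1 array each, and miR-203a-5p and miR-203b-3p on 0.

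**Figure D2:**
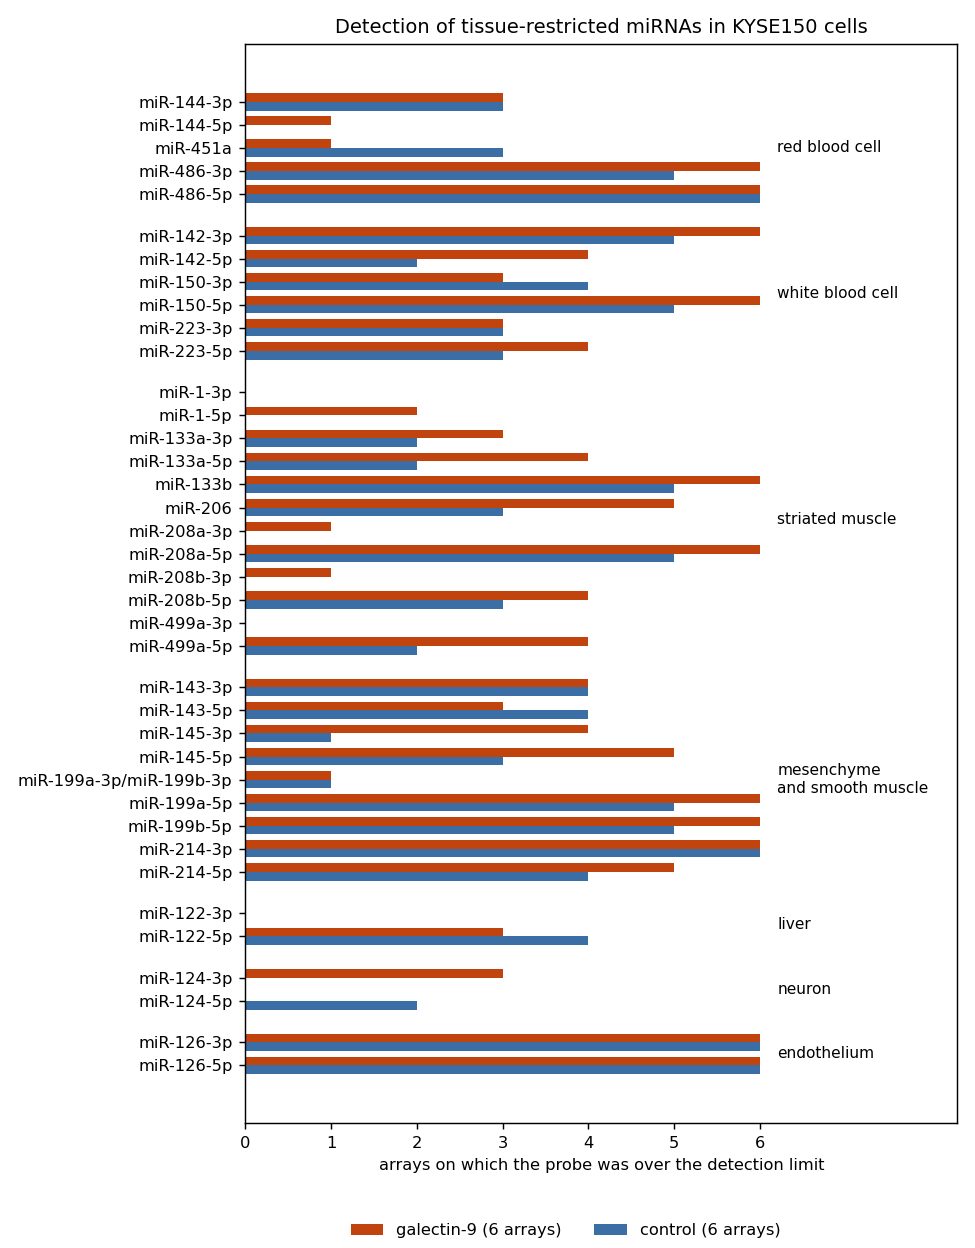
Bars give the number of arrays (x axis, 0 to 6) on which each of the 38 probes (y axis, grouped by the tissue it marks) was over the detection limit, with galectin-9 arrays above control arrays. Both arms of miR-126, miR-214-3p and miR-486-5p reach 6 in both groups, while miR-1-3p, miR-499a-3p and miR-122-3p have no bar.

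Among the red blood cell miRNAs, miR-486-5p was detected on 12 arrays and its partner arm miR-486-3p on 11. miR-451a, which is matured by Argonaute2 without Dicer and fills red cells, was detected on 1 galectin-9 array and 3 control arrays. miR-144, made from the same transcript as miR-451a, was detected on 3 arrays of each group for its 3p arm, and its 5p arm on 1 galectin-9 array and 0 control arrays. The members of this group therefore did not go together: miR-486-5p exceeded the 95th percentile of the No Probe spots on 6 arrays, and miR-451a and both arms of miR-144 did so on 0.

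All 6 white blood cell probes were detected on at least 6 arrays and none on all 12. miR-142-3p, found across blood lineages, and miR-150-5p, a miRNA of mature lymphocytes, were each detected on 6 galectin-9 and 5 control arrays. miR-142-5p was detected on 4 galectin-9 and 2 control arrays, and miR-150-3p on 3 and 4. miR-223-3p, a miRNA of granulocytes, was detected on 3 arrays of each group, with its spot on galectin-9 array 5 left out because the file marks it as not good, and miR-223-5p on 4 galectin-9 and 3 control arrays. miR-142-3p was above the 95th percentile of the No Probe spots on 4 arrays and miR-150-5p on 3. The background-subtracted intensity of miR-142-3p was 2.68 (lowest), 5.55 (median) and 11.5 (highest) on galectin-9 arrays, against 2.71, 3.90 and 18.3 on control arrays. The highest value of each group, on galectin-9 array 5 and control array 1, was well apart from that group's lowest, so the spread lay within both groups.

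The striated muscle miRNAs were the least detected of the larger groups, with 6 of 12 probes on at least 6 arrays and none on all. miR-1-3p, the main miRNA of heart and skeletal muscle, was detected on 0 arrays, while miR-206, which shares its seed and marks skeletal muscle, was detected on 5 galectin-9 and 3 control arrays. miR-133a-3p was detected on 3 galectin-9 and 2 control arrays, while miR-133b, which differs from it at the last base, was detected on 6 and 5. The other arms of these hairpins were low too, with miR-1-5p on 2 galectin-9 and 0 control arrays and miR-133a-5p on 4 and 2. The heart miRNAs miR-208a and miR-208b lie within the myosin genes MYH6 and MYH7. Their 3p arms, which share a seed, were each detected on 1 galectin-9 array and 0 control arrays, while miR-208a-5p was detected on 6 and 5 and miR-208b-5p on 4 and 3. miR-499a, within MYH7B, was detected on 0 arrays for its 3p arm, and on 4 galectin-9 and 2 control arrays for its 5p arm. Above the 95th percentile of the No Probe spots, 10 of the 12 muscle probes were seen on 0 arrays, miR-133b on 3 and miR-208a-5p on 2.

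In the mesenchymal group, 7 of 9 probes were detected on at least 6 arrays and 1, miR-214-3p, on all 12. miR-143-3p and miR-145-5p, the smooth muscle miRNAs of a shared transcript, were detected on 4 and 5 galectin-9 arrays, and on 4 and 3 control arrays. Their other arms were detected on 3 galectin-9 and 4 control arrays (miR-143-5p) and on 4 and 1 (miR-145-3p). miR-199a-5p and miR-199b-5p were each detected on 6 galectin-9 and 5 control arrays, while the probe for their common 3p arm was detected on 1 array of each group. miR-214-3p was above the 95th percentile of the No Probe spots on 11 arrays, and its partner miR-214-5p, detected on 5 galectin-9 and 4 control arrays, on 0.

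The organ markers differed among themselves. miR-122-5p, the miRNA of hepatocytes, was detected on 3 galectin-9 and 4 control arrays and miR-122-3p on 0 arrays, and neither rose above the 95th percentile of the No Probe spots on any array. miR-124-3p, the neuronal miRNA, was detected on 3 galectin-9 and 0 control arrays and miR-124-5p on 0 and 2, also with no array above that percentile. Members below the limit on every array of a group have only an upper bound there. miR-126 stood out, with both arms detected on all 12 arrays, and above the 95th percentile of the No Probe spots on 12 arrays for the 3p arm and 10 for the 5p arm. miR-126-3p also lay above the brightest No Probe spot on all 12 arrays, the only one of the 38 probes to do so.

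The levels of the 4 members detected on all arrays were then compared between treated and control cells. For this, background-subtracted intensities were quantile-normalised over all human miRNA probes and put on a log2 scale. miR-126-3p, which in endothelium represses SPRED1 and PIK3R2, had background-subtracted intensities of 37.6 (lowest), 43.9 (median) and 56.9 (highest) on galectin-9 arrays, against 32.7, 41.6 and 48.4 on control arrays. The groups overlapped almost completely. On the normalised log2 scale it averaged 5.41 ± 0.23 in galectin-9 cells and 5.43 ± 0.17 in control cells (SD, n = 6 each), a log2 difference of -0.02 (95% interval -0.29 to 0.25, limma adjusted p = 0.953). With the authors' global normalisation the difference was 0.30, and without normalisation 0.13. Its difference within slides 1, 2 and 3 was -0.04, -0.03 and 0.01.

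miR-126-5p, the other arm of this hairpin, had background-subtracted intensities of 7.22 (lowest), 11.2 (median) and 13.6 (highest) on galectin-9 arrays, against 7.09, 8.69 and 10.7 on control arrays. The normalised log2 intensity was 3.37 ± 0.39 in galectin-9 cells and 3.19 ± 0.21 in control cells (SD, n = 6 each), and the log2 difference of 0.17 (95% interval -0.20 to 0.55) did not pass (limma adjusted p = 0.705). The values overlapped, with galectin-9 arrays 3 and 5 above every control array. Without galectin-9 array 5 the difference was 0.056, and without galectin-9 array 2 it was 0.28.

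miR-214-3p, known from fibroblasts and activated mesenchyme, had background-subtracted intensities of 8.98 (lowest), 15.1 (median) and 30.9 (highest) on galectin-9 arrays, against 10.9, 17.9 and 36.7 on control arrays. Slide 1 held the highest galectin-9 value and the 2 highest control values, and the groups overlapped. The normalised log2 intensity was 3.93 ± 0.41 in galectin-9 cells and 4.30 ± 0.40 in control cells (SD, n = 6 each). The log2 difference of -0.38 (95% interval -0.85 to 0.10) did not pass (limma adjusted p = 0.473), although the galectin-9 array had the lower value in 6 of 6 pairs that share a replicate number. The slides gave -0.53, -0.17 and -0.43, and a fit with replicate blocks gave a limma adjusted p of 0.303.

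miR-486-5p, made from within ANK1 and one of the most abundant miRNAs of red cells, had background-subtracted intensities of 5.49 (lowest), 6.13 (median) and 9.61 (highest) on galectin-9 arrays, against 5.47, 7.75 and 18.1 on control arrays. The highest value belonged to control 6, the array with the fewest detected probes, and the other control arrays lay within 5.47 to 8.40. The normalised log2 intensity was 2.66 ± 0.22 in galectin-9 cells and 3.12 ± 0.75 in control cells (SD, n = 6 each), a log2 difference of -0.47 (95% interval -1.09 to 0.16, limma adjusted p = 0.497). Without control 6 it was -0.18 (limma adjusted p = 0.672), so that the size of the difference rests on that array.

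**Figure D3:**
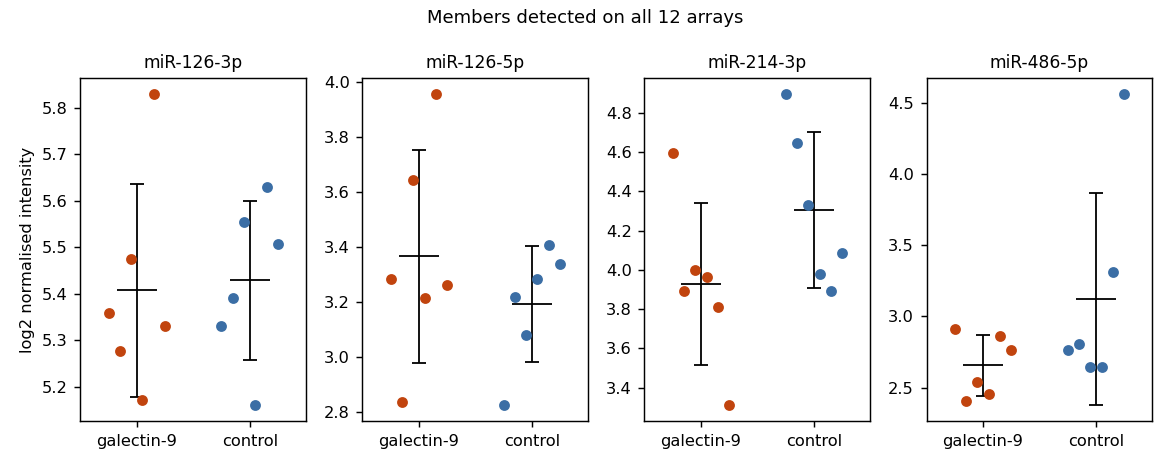
Normalised log2 intensity (y axis) of the 4 members detected on all 12 arrays, with 1 point per array for galectin-9 (left) and control (right) and lines for the mean and SD of 6 arrays. The groups overlap for each probe, and control 6 lies alone at 4.56 for miR-486-5p.

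The change with galectin-9 was tested for the 25 members detected on at least 6 arrays, in 1 limma fit with all 1734 such probes and p-values adjusted over all of them. Values below the limit were set to the lowest detected value of their array, its floor. Of the 25 members, 0 were called higher, against 0.173% of all probes tested, and 0 were called lower, against 0.0%. At an unadjusted p under 0.05, limma gave 0 members higher, against 4.21% of all probes, and 5 lower, against 8.59% of all probes. Of the 843 probes detected on 6 to 11 arrays, 1.66% were higher and 10.9% lower at that level. The 5 lower members became 8 without galectin-9 array 1, 3 without galectin-9 array 2 or control 6, and 1 without slide 3. The lower count of all probes moved too, from 149 to 132 without galectin-9 array 2, 110 without control 6 and 75 without slide 3. Without galectin-9 array 1 the all-probe count fell slightly, while that of the members rose. Without control 6, 1 member was higher at that level, against 92 of all probes. With the authors' global normalisation 3 members were higher and 1 lower at that level, against 235 and 2 of all probes. Without normalisation 1 member was higher and 2 lower, against 82 and 26 of all probes. The unmoderated test called 0 members too, with 5 lower and 0 higher at an unadjusted p under 0.05, against 155 and 92 of all probes. The galectin-9 and control values overlapped for all 25, while they did not overlap for 1.44% of all probes tested.

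The log2 difference lay below 0 for 21 of the 25 members, with a median of -0.24. Over all probes tested 63.3% lay below 0, with a median of -0.07, and among probes detected on 6 to 11 arrays 71.9% did. Of the 4 members with no value at a floor, 3 lay below 0, against 55.2% of all probes detected on all 12 arrays. The floors differ between arrays. On control 6, 20 of the 25 members were below the limit and stood at its floor of 2.44 on the log2 scale, and for 14 of them this floor was the highest control value. Without control 6, 17 of 25 lay below 0 and the median was -0.14, against 55.2% and a median of -0.03 over all probes. With every floor lowered to 0.5 of the lowest detected value, 15 of 25 lay below 0, against 49.4% of all probes. This moves each floored value down by the same step, so a member's difference changes only with the share of floored values in each group. With no floor, on values shifted so that the lowest is 1, 15 of 25 lay below 0, against 50.3% of all probes. With the authors' global normalisation 9 of 25 lay below 0, against 14.7% of all probes. The members' median was 0.13 there and that of all probes tested 0.23, so that relative to the latter the members' median was -0.11.

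**Figure D4:**
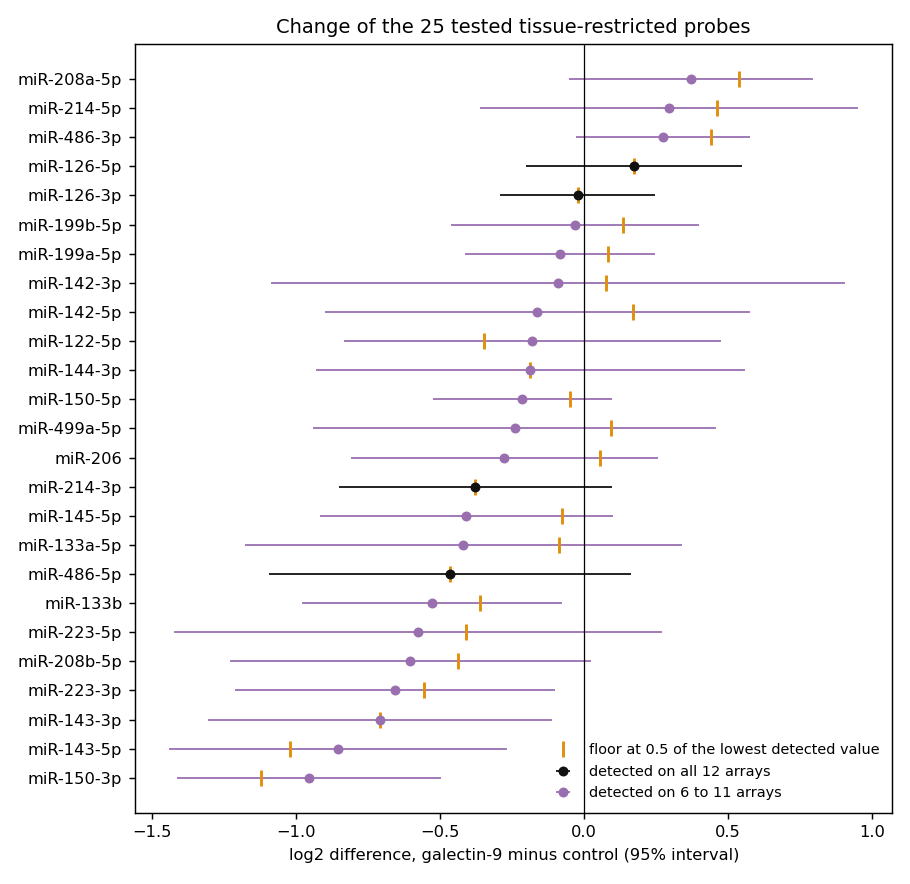
Points give the log2 difference, galectin-9 minus control (x axis), of each of the 25 tested members (y axis) with its 95% interval, and orange marks give the difference with floors at 0.5 of the lowest detected value. With those lower floors, 15 of the 25 differences lie below 0, against 21 of 25 for the points.

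The 5 members with the smallest unadjusted p all had lower means on galectin-9 arrays, and none passed after adjustment. miR-150-3p, the partner arm of the lymphocyte miRNA miR-150-5p, had log2 intensities of 0.34 (lowest), 1.04 (median) and 1.42 (highest) on galectin-9 arrays, against 1.40, 1.88 and 2.44 on control arrays. The groups overlapped only between the highest galectin-9 and the lowest control value, but 3 galectin-9 and 2 control values were floors, among them the highest control value. Before normalisation and flooring, these control values were 1.18 units on control 4 and 0.97 on control 6, below the lowest galectin-9 value of 1.39. The other control values, 3.33 to 4.46 units, lay above the highest galectin-9 value of 2.90. Its mean was 0.97 ± 0.39 in galectin-9 cells and 1.92 ± 0.39 in control cells (SD, n = 6 each), a log2 difference of -0.96 (95% interval -1.41 to -0.50, limma adjusted p = 0.140). Within slides 1, 2 and 3 the difference was -0.48, -0.56 and -1.83. It was -1.12 with the lowered floors (limma adjusted p = 0.296) and -0.34 with no floor (limma adjusted p = 0.243), on the shifted scale that understates differences of dim probes. The lowered floors still differ between arrays. For this and the following members, the change they bring is set by the numbers of floored values, so it is no separate reading of the difference. With 1 floor for all arrays, the highest of their floors, the difference is 0 by construction.

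Both arms of the smooth muscle miRNA miR-143 came next. miR-143-5p had log2 intensities of 0.34 (lowest), 1.12 (median) and 1.58 (highest) on galectin-9 arrays, against 1.09, 1.83 and 2.46 on control arrays. For miR-143-3p they were 0.58, 1.19 and 2.08 on galectin-9 arrays, against 1.08, 2.14 and 2.44 on control arrays. In both arms the groups overlapped, and the galectin-9 values include 3 (5p) and 2 (3p) floors and the control values 2 each. The log2 difference was -0.85 for miR-143-5p (95% interval -1.44 to -0.27, limma adjusted p = 0.259) and -0.71 for miR-143-3p (95% interval -1.30 to -0.11, limma adjusted p = 0.310). The 3p arm was lower in 6 of 6 pairs of equal replicate number, and with the replicate block its adjusted p was 0.188 (limma). Both results rest in part on floors. In pair 4 both values are floors, and in pair 6 the control value is a floor, the highest control value of this arm. Before normalisation and flooring, the galectin-9 array was the higher in these pairs, with 2.26 against 1.09 units in pair 4 and 2.28 against 1.07 in pair 6. With the lowered floors the differences were -1.02 for miR-143-5p and -0.71 for miR-143-3p. The latter is unchanged by construction, as both groups hold 2 floors. With no floor, on the shifted scale, the differences were -0.29 for miR-143-5p and -0.22 for miR-143-3p.

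miR-223-3p had log2 intensities of 0.57 (lowest), 1.15 (median) and 1.67 (highest) on 5 galectin-9 arrays, against 1.31, 1.71 and 2.44 on control arrays, and the groups overlapped. Its fit leaves out galectin-9 array 5, whose spot is marked as not good and had the highest background-subtracted intensity of this probe, 8.29. Floors make up 2 of the galectin-9 and 3 of the control values, the highest control value included. The log2 difference was -0.65 (95% interval -1.21 to -0.10, limma adjusted p = 0.312). It was -0.55 with the lowered floors and -0.16 with no floor, on the shifted scale.

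miR-133b, a muscle miRNA detected on 11 arrays, rests on the floor least of these 5, with 1 floor value, on control 4. Its log2 intensities were 1.47 (lowest), 1.83 (median) and 2.35 (highest) on galectin-9 arrays, against 1.64, 2.45 and 2.84 on control arrays, with an overlap of the groups. The mean was 1.88 ± 0.34 in galectin-9 cells and 2.40 ± 0.42 in control cells (SD, n = 6 each), and the log2 difference was -0.53 (95% interval -0.98 to -0.08, limma adjusted p = 0.315). Within slides 1, 2 and 3 it was -0.24, -0.64 and -0.70. It was -0.36 with the lowered floors and -0.26 with no floor, on the shifted scale.

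**Figure D5:**
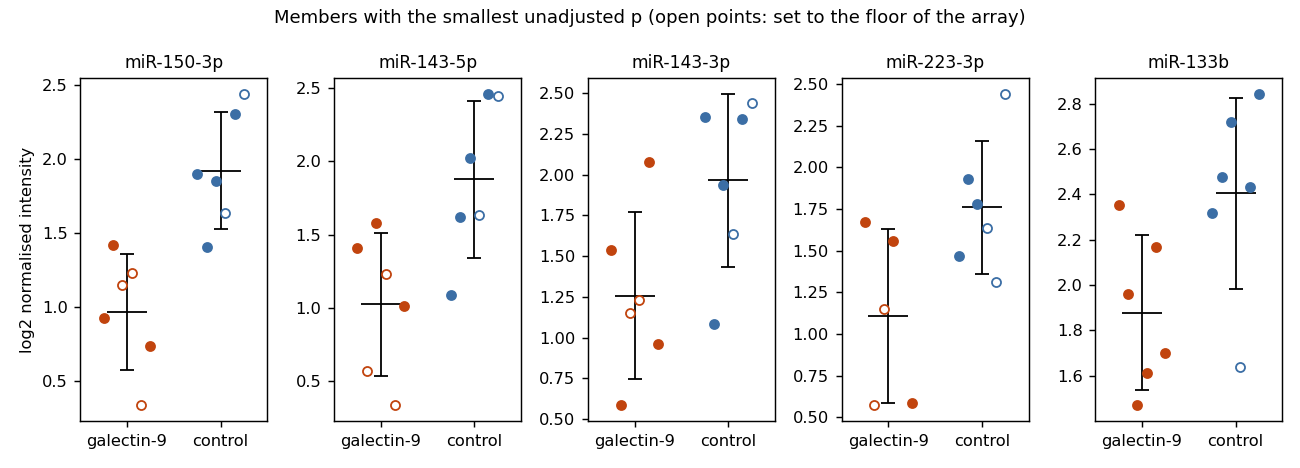
Normalised log2 intensity (y axis) on each galectin-9 (left) and control (right) array for the 5 members with the smallest unadjusted p, with lines for mean and SD. Open points are values set to the floor of the array, and for miR-150-3p they include the highest control value of 2.44.

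The other 16 tested members had log2 differences from -0.60 to 0.37, 13 of them below 0 and 3 above, with limma adjusted p from 0.390 to 0.958. The 3 above 0 were miR-208a-5p (0.37, 95% interval -0.05 to 0.80), miR-214-5p (0.30, -0.36 to 0.95) and miR-486-3p (0.28, -0.03 to 0.58). The arms of a hairpin therefore had opposite signs for miR-486, with -0.47 for miR-486-5p, and for miR-214, with -0.38 for miR-214-3p, and for miR-126, and the interval of each of these arms includes 0. The intervals of miR-199a-5p (-0.41 to 0.25) and miR-150-5p (-0.52 to 0.10) are among the narrower ones, and that of miR-142-3p (-1.08 to 0.91) is wide.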

How the data were processed

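Per the file headers, each array file holds 3200 spots with their raw Cy5 intensity, the intensity above background and a globally normalised one. These deposited intensities are linear, in arbitrary units. From the columns, the background is a trimmed mean (5% off either tail) of 320 blank spots, and the authors' global normalisation sets the median of listed spots to 25. The authors' deposited table of intensities covers 891 probes, 4 of them members, with sorted columns that differ by at most 0.340%. No scanner is named in these sources. Raw intensity minus background was quantile-normalised over human miRNA probes, floored and tested with limma 3.58.1 in R 4.3.3 (lmFit and eBayes, two-sided, Benjamini-Hochberg, threshold 0.05), with array measures and sequences handled in Python 3.11.15. The 6 human spots marked as not good were left out, 1 of them a member's. The fit was tested on simulated data. The simulation had no detection limit and no floors, so it does not bear on members with floored values. Deviations from the group means correlated between arrays of equal replicate number in 6 of 6 pairs (0.171 to 0.527), so the numbers were taken as pairs, in an alternative fit. Arrays of equal number are also neighbours on a slide, so pairing of samples and place on the slide cannot be told apart. Per-array values were given for members detected on all 12 arrays and for the 5 with the smallest unadjusted p, and other members by counts and ranges. The number of arrays limits the precision. The members and lists were chosen with earlier results of these data known.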

Additional observations from a re-analysis of the deposited data

Results flagged for a closer look

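The log2 intensity of miR-486-5p on control 6 was 4.56, far from the other 5 control arrays, which lay between 2.64 and 3.31. The probe was over the detection limit on all of them. The gap was 0.651 of the range of the control group, above Dixon's 95% critical value for 6 samples. Of 26 groups of values examined this was the only one, and chance flags about 1 in 20. Control 6 was also the array with the fewest detected human miRNA probes (934) and the fewest detected restricted probes (5).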

How the results depend on the processing

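No restricted probe was called under any of the 27 alternatives, and the smallest adjusted p was 0.0978, for miR-150-3p without control 2. Counts of detected members depend on the limit: 25 on at least 6 arrays became 15 at background plus 3 SD, 6 at the highest blank spot and 4 at the No Probe percentile, and 4 on all arrays became 2 and 1 under those last limits and 10 without control 6. Over all probes, the 3 higher and 0 lower calls became 1 higher with the replicate block, 1 lower with the slide as a block, and 6 higher and 3 lower among probes detected on all arrays, with quantile normalisation over those, or with 1 floor. That single floor, 2.44 on the log2 scale, is the highest of the arrays' floors, so probes with no value above it differ by 0 by construction, as do 13 of the 25 members. The all-probe counts were 13 and 6 with normexp, 5 and 2 without a floor (chosen after seeing the data), 0 higher without slide 1, 2 or 3, and 2 lower in the unmoderated test. Leaving out 1 array gave 2 to 3 higher and 0 to 2 lower. The cause was not tested. The sign of miR-126-3p turned without normalisation (0.13) and with global normalisation (0.30), and ran from -0.11 to 0.025 with 1 array left out. The replicate block changed no call of a restricted probe, with an adjusted p of 0.221 for miR-150-3p. Most members lie close to background, which limits what these arrays can show of them.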

Other observations

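The miRNAs of pluripotent cells, another restricted set, were detected much as the members were: 11 of 20 probes on at least 6 arrays, 1 on all 12, and 17 on no array above the 95th percentile of the No Probe spots. Of all 2565 human miRNA probes, 1266 were on no array above that percentile.

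Among the 4 members detected on all arrays, 6 pairs were compared over the 12 arrays. The arms of miR-126 gave a Pearson's r of 0.645 (permutation p = 0.0257, adjusted 0.195). Their Spearman's rho was 0.571 (permutation p = 0.0562, adjusted 0.225), with adjustment over the 12 tests of these pairs. Without the 2 arrays farthest from the median of miR-126-3p, r was 0.244. Leaving out its most extreme values narrows its range, which by itself can lower r. Within the galectin-9 arrays r was 0.868 and within the control arrays 0.286. The 4 arrays of a slide are too few for a value within slides. The other 5 pairs had adjusted p from 0.195 to 0.978.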
